A study of Rattus norvegicus with 24 samples.

Results

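Rat miR-10a, miR-10b, miR-196a and miR-196b are encoded inside the Hox gene clusters, and their 6 mature forms in the read-count table of the 2 brain nuclei, rno-miR-10a-5p, rno-miR-10a-3p, rno-miR-10b-5p, rno-miR-10b-3p, rno-miR-196a-5p and rno-miR-196b-5p, are described here. They were taken by name from the 1098 miRNAs of the table, and all 6 names were found. The choice was made with the PVN values of rno-miR-10b-5p for HT against NC and for HT + EA against HT already known, so the PVN values below are a description and carry no test.

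Small RNA was sequenced from the paraventricular nucleus of the hypothalamus (PVN) and the central amygdala (CEA) of male Sprague-Dawley rats, bought at 7 weeks of age, in 24 libraries, 3 for each of 4 treatments in each nucleus. Normal control (NC) rats were restrained and not operated on, and hepatectomy (HT) rats were restrained and had about 20% of the left liver lobe removed under isoflurane. HT + EA rats received electroacupuncture (EA) at ST 36 and SP 6, at 2 and 15 Hz for 30 min, 24 h before and again right after that operation, awake in the restraint device, and HT + SEA rats had the needles placed at the same points without current (sham, SEA). The nuclei were collected 24 h after the final session. The methods name 12 rats and state that brain samples of the same batch came from different animals, because 1 rat gave too little tissue, so which libraries share an animal is not known and the spread between libraries may be partly technical. NC differed from HT in anaesthesia and laparotomy as well as in liver removal, and these cannot be told apart.

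MicroRNAs are short RNAs that guide Argonaute proteins to messenger RNAs, mostly through bases 2 to 8 of the miRNA, called the seed, and lower the output of those messengers. Hox genes encode the transcription factors that set position along the head-to-tail axis, and in the developing brain they are active in the hindbrain and spinal cord rather than in the forebrain, where the PVN and CEA lie. The miR-10 and miR-196 genes sit between or within Hox genes and are largely expressed with them. miR-196 directs the cleavage of Hoxb8 messenger RNA, and Hoxd10 is a known target of miR-10b. Each hairpin can give a mature RNA from its 5′ arm (-5p) and from its 3′ arm (-3p).

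All 6 members were matched to RefSeq mature miRNAs of the rat assembly GRCr8. Their sequences, 5′ to 3′ with the seed in capitals, are shown because the 5p arms of each family are almost the same RNA. Among the members only rno-miR-196a-5p and rno-miR-196b-5p share a seed.
rno-miR-10a-5p: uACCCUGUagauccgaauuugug
rno-miR-10b-5p: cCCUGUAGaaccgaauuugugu
rno-miR-10a-3p: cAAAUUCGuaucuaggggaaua
rno-miR-10b-3p: aCAGAUUCgauucuaggggaa
rno-miR-196a-5p: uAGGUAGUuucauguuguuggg
rno-miR-196b-5p: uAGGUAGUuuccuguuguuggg

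rno-miR-196a-5p and rno-miR-196b-5p share their seed and differ over 22 aligned bases by 1, A12C, with positions counted from 1 at the 5′ end of miR-196a-5p. rno-miR-10a-5p and rno-miR-10b-5p differ over 21 aligned bases by 1, U12A, with positions counted from the 5′ end of miR-10a-5p. The annotated miR-10b-5p starts 2 bases later than miR-10a-5p, so its bases 2 to 8 are not those of miR-10a-5p. In the Mir10b hairpin the 2 bases before that start are UA, and a form that began there would have the seed of miR-10a-5p. The table gives 1 count per name, so the start positions of the reads were not seen. How the counting treated a read that fits both members of a pair is not stated, and the division of reads within each pair is uncertain to that extent.

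The hairpins of the miR-10 pair, the members with most of the reads, follow with their annotated mature arms in capitals. Mir10a is at GRCr8 chr10:81779709-81779818, plus strand, between Hoxb5 and Hoxb4, and Mir10b is at chr3:80035859-80035967, plus strand, inside the span annotated for Hoxd4.
Mir10a: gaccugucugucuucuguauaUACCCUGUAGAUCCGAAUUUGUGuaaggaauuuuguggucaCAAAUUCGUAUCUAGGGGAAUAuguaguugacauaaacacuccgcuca
Mir10b: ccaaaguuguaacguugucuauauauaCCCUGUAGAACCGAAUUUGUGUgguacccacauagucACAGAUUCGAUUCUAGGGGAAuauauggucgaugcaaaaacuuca

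Mir196a is at chr7:135988876-135988985, plus strand, between Hoxc10 and Hoxc9, and Mir196b is at chr4:82661101-82661185, minus strand, between Hoxa9 and Hoxa10. The 4 genes therefore lie on 4 chromosomes, 1 in each Hox cluster.

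The libraries held between 6584345 and 14828269 reads counted on miRNAs in the PVN and between 9463321 and 14913564 in the CEA, and the PVN NC and HT libraries, at no more than 11050725, were less deep than the other PVN libraries. Levels are given as CPM, the count scaled to a library of 1000000 reads by the library's total. A count of 3 was used as the floor of detection and is worth 0.201 to 0.456 CPM, and this limit covers counting error only. The summed level of 4 miRNAs typical of neurons was 103000 to 116900 CPM in the PVN and 137900 to 162600 CPM in the CEA, and the liver miRNA rno-miR-122-5p was between 0.473 and 12.4 CPM in the 24 libraries. Its highest level was in a PVN HT library, and no other group exceeded 2.452 CPM. In bulk tissue, fewer cells of a type and less of an RNA per cell cannot be told apart.

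Nearly all reads of the members came from the 5p arms of miR-10a and miR-10b. Over the 24 libraries rno-miR-10b-5p had 28567 counts and rno-miR-10a-5p had 23145, and by mean CPM they stood at places 216 and 230 among the 1098 miRNAs. The 3p arms had 44 and 67 counts, so that there were 649 reads of the 5p arm for each read of the 3p arm in miR-10b and 345 in miR-10a. rno-miR-10a-3p exceeded 3 counts in 7 of the 24 libraries, with at most 7 counts, and rno-miR-10b-3p in 3 libraries, with at most 4.

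The miR-196 members were at the limit of detection. rno-miR-196a-5p had 18 counts in all and rno-miR-196b-5p had 17, each was at 0 in 13 of the 24 libraries, and neither exceeded 3 counts in any library. All 3 PVN HT libraries were at 0 for both, as were the 3 CEA HT libraries for rno-miR-196b-5p, which allows up to 0.341 CPM in a PVN HT library and up to 0.304 CPM in a CEA HT library. The highest count, 3, was reached by rno-miR-196a-5p in NC libraries of both nuclei and in 1 PVN HT + SEA library, and by rno-miR-196b-5p in 1 CEA HT + SEA library. No fold is given for these 4 members, since their groups were at or near the floor. Another miRNA of a Hox cluster, rno-miR-615, had 3 counts in all.

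In the PVN, rno-miR-10b-5p was low in every HT library and high in every HT + EA library, and in the NC and HT + SEA groups the libraries disagreed with each other. Its level was 343, 43.8 and 195.9 CPM in NC replicates 1, 2 and 3. It was 36.9, 28.0 and 45.1 CPM in the HT replicates. In HT + EA it was 128, 135 and 174 CPM, and in HT + SEA 134, 31.0 and 30.6 CPM. NC replicate 2 stood inside the HT range, so NC and HT overlapped, and HT + SEA replicate 1 stood with the HT + EA libraries while replicates 2 and 3 stood with HT. The HT + EA libraries were all above the HT libraries.

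The mean of rno-miR-10b-5p in the PVN was 194 CPM ± 150 in NC, 36.7 ± 8.52 in HT, 146 ± 25.1 in HT + EA and 65.3 ± 59.7 in HT + SEA (SD, n = 3 each). In edgeR's quasi-likelihood fit of the 12 PVN libraries, the log2 fold change was -2.47 (SE 0.81) for HT against NC and 2.01 (SE 0.80) for HT + EA against HT. It was 0.85 (SE 0.78) for HT + SEA against HT and 1.16 (SE 0.77) for HT + EA against HT + SEA. Without NC replicate 1 the difference between HT and NC was -1.78. Without HT + SEA replicate 1 the HT + SEA difference turned to -0.20 and that between HT + EA and HT + SEA became 2.23.

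rno-miR-10a-5p varied over a smaller range in the PVN. Its level was 116, 46.8 and 98.3 CPM in the NC replicates and 61.7, 48.6 and 51.3 CPM in HT. In HT + EA it was 75.4, 80.02 and 80.9 CPM, and in HT + SEA 69.6, 55.0 and 44.5 CPM. NC replicate 2 was again the low library of its group, below all HT libraries. The 3 HT + EA libraries were above all HT libraries and all HT + SEA libraries.

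The log2 fold changes of rno-miR-10a-5p in the PVN were -0.75 (SE 0.30) for HT against NC, 0.56 (SE 0.30) for HT + EA against HT, 0.10 (SE 0.30) for HT + SEA against HT and 0.46 (SE 0.30) for HT + EA against HT + SEA. The third of these became -0.07 without HT + SEA replicate 1. Both 5p members had groups that did not overlap for HT + EA against HT, where 15.7% of the 985 miRNAs with a count in those 6 libraries did not overlap either. For HT + EA against HT + SEA 1 of the 2 did not overlap, rno-miR-10a-5p, beside 11.3% of 994 miRNAs, and for HT against NC and HT + SEA against HT neither was separated, beside 12.8% and 10.3%. The values that chose the members come from these PVN libraries, so nothing is read from these counts. With p-values adjusted over the whole table, 1.23% of 1053 miRNAs were under 0.05 for HT against NC, 0.285% for HT + EA against HT, 0% for HT + SEA against HT and 0.095% for HT + EA against HT + SEA. With replicate numbers as a block, 33 miRNAs in place of 3 were called for HT + EA against HT, the PVN comparison in which same-numbered libraries deviated together. In that blocked fit edgeR's prior degrees of freedom were infinite for 1053 of 1053 miRNAs, so a miRNA's own spread did not enter its test.

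**Figure D1:**
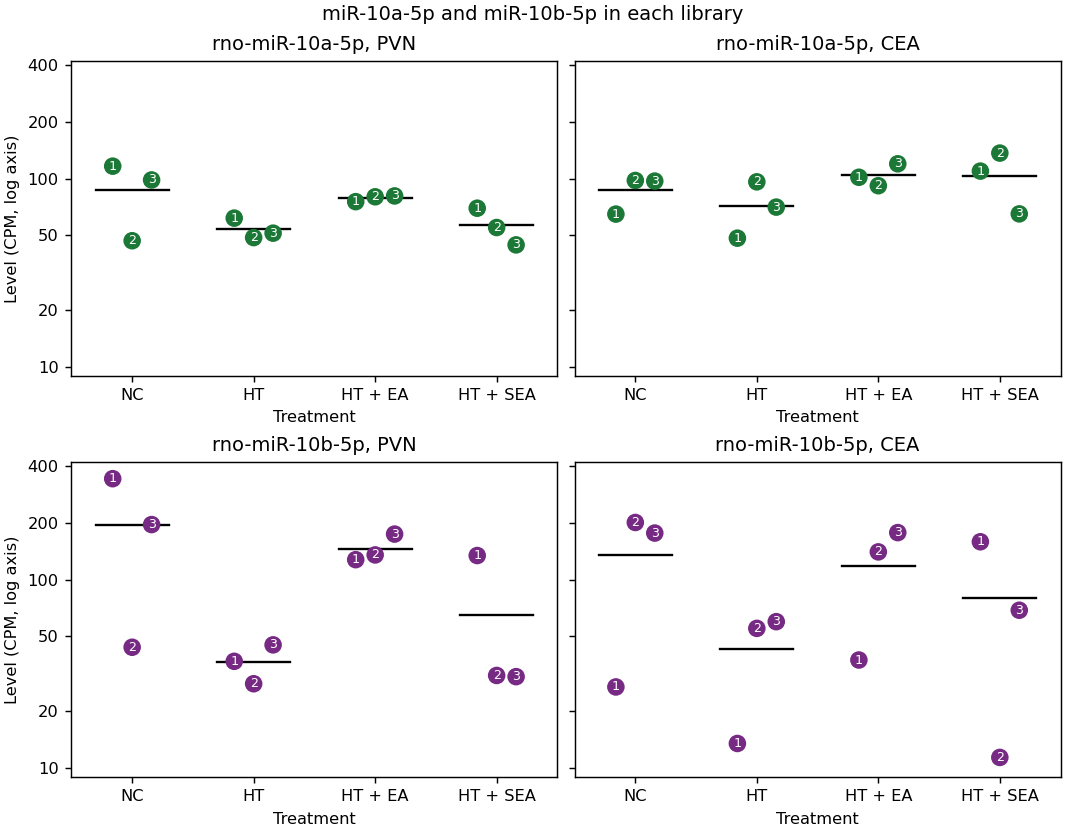
Level of rno-miR-10a-5p (upper row) and rno-miR-10b-5p (lower row) in CPM on a log axis, by treatment in the PVN (left) and the CEA (right). Each point is 1 library with its replicate number and each line is the mean of 3 libraries, and the miR-10b-5p points of 1 group lie up to 13.9-fold apart while those of miR-10a-5p lie within 2.49-fold.

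The CEA libraries give a comparison in which the values known at the choice of the members were not used. Same-numbered PVN and CEA libraries also deviated together in the NC group (r over miRNAs 0.182 to 0.301) and in HT + SEA (0.371 to 0.555), and not in every pair of HT or HT + EA, so the nuclei may not be independent. In the CEA rno-miR-10b-5p again differed strongly between libraries of the same group. Its level was 26.9, 201 and 177 CPM in the NC replicates and 13.5, 55.1 and 59.8 CPM in HT. In HT + EA it was 37.5, 140 and 178 CPM, and in HT + SEA 159, 11.4 and 68.8 CPM. Replicate 1 was the lowest library of the NC, HT and HT + EA groups and the highest of HT + SEA, as it was in the PVN HT + SEA group. All 4 comparisons of treatments overlapped.

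The means of rno-miR-10b-5p in the CEA were 135 CPM ± 94.3 in NC, 42.8 ± 25.5 in HT, 118 ± 72.6 in HT + EA and 79.7 ± 74.3 in HT + SEA (SD, n = 3 each). The log2 fold change for HT against NC was -1.61, with a 95% interval from -4.05 to 0.84 and an adjusted p of 0.985 by edgeR (quasi-likelihood, Benjamini-Hochberg). For HT + EA against HT it was 1.40 (-1.04 to 3.83, edgeR adjusted p = 0.957), and for HT + SEA against HT 0.85 (-1.56 to 3.26, edgeR adjusted p = 0.980). The difference between HT + EA and HT + SEA was 0.55 (-1.84 to 2.93, edgeR adjusted p = 1), and it was 1.55 without HT + SEA replicate 1 and 0.02 without HT + SEA replicate 2. The 4 signs were the same as in the PVN, but each interval of this fit, which ignores replicate numbers, spans both directions. Without HT + SEA replicate 1 the HT + SEA difference was -0.15 (edgeR adjusted p = 1).

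Same-numbered NC and HT libraries of the CEA deviated together over the miRNAs with a mean count of at least 10 (r 0.203 to 0.418). rno-miR-10b-5p was lower in the HT library in 3 of 3 such pairs, with differences of -0.74, -1.83 and -1.57 in log2 CPM scaled by TMM and not by library totals (mean -1.38 ± 0.57, SD, n = 3 pairs). An exact two-sided permutation test over the 3 pairs gave p = 0.25, the smallest it can give. When replicate numbers entered the 12-library fit as a block, edgeR gave -1.55 with an adjusted p of 1.1e-12, which passes the threshold, and DESeq2 gave -1.55 (SE 1.04) with an adjusted p of 1. In that edgeR fit the prior degrees of freedom were infinite for 1064 of 1064 miRNAs, so a miRNA's own spread did not enter its test, and the deviance of miR-10b-5p was 155 on 6 residual degrees of freedom, against 155 on 8 without the block.

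Those 12 libraries include the HT + SEA group, where replicate 1 was the highest and not the lowest library. With the block in a fit of the 6 NC and HT libraries alone, chosen after the data were seen, miR-10b-5p was called by both tools. edgeR gave -1.43 (SE 0.17, adjusted p = 8.6e-13) and DESeq2 -1.41 (SE 0.22, adjusted p = 3.0e-07), and the deviance was 5.05 on 2 residual degrees of freedom, against 55.5 on 4 without the block. With 2 residual degrees of freedom and a prior of 921 the spread in edgeR's test came almost wholly from other miRNAs. DESeq2 also draws each miRNA's spread towards a trend over all miRNAs, so its call from the same 6 libraries is not independent of edgeR's. Over all miRNAs the 12-library fits called 6 with the block and 0 without it in edgeR, and 0 with and without it in DESeq2. The 6-library fits called 6 with the block and 1 without it in edgeR, and 2 with the block in DESeq2. The call for HT against NC in the CEA therefore changes with the pairing, the tool and the libraries in the fit, and what same-numbered libraries share is not stated. For rno-miR-10a-5p the pairs differed by -0.17, 0.02 and -0.47 on that scale, and no blocked fit called it.

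rno-miR-10a-5p was more even in the CEA. It was 64.8, 97.7 and 96.9 CPM in the NC replicates, 48.3, 96.1 and 70.5 CPM in HT, 102, 91.6 and 120 CPM in HT + EA and 110, 136 and 64.9 CPM in HT + SEA. The groups of all 4 comparisons overlapped. The log2 fold change was -0.20 for HT against NC (95% interval -0.70 to 0.30, edgeR adjusted p = 1) and 0.44 for HT + EA against HT (-0.06 to 0.94, edgeR adjusted p = 0.957). It was 0.46 for HT + SEA against HT (-0.04 to 0.96, edgeR adjusted p = 0.926) and -0.02 for HT + EA against HT + SEA (-0.52 to 0.47, edgeR adjusted p = 1).

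All 6 members had counts in the CEA fit, and without a block 0 were called in any of the 4 CEA comparisons, beside 0% of the 1064 miRNAs tested in each. At an unadjusted p under 0.05 edgeR also gave 0 members in each, and 28, 43, 36 and 14 of all miRNAs for HT against NC, HT + EA against HT, HT + SEA against HT and HT + EA against HT + SEA, and DESeq2 without a block called 0 members. Neither miR-10b-5p nor miR-10a-5p was separated between groups in any of these comparisons, beside 5.62%, 9.36%, 6.41% and 4.78% of all miRNAs with a count. The difference between the nuclei in the effect of HT, fitted as an interaction over all miRNAs, was -0.81 (SE 1.32) for miR-10b-5p and -0.51 (SE 0.43) for miR-10a-5p on the log2 scale. For HT + EA against HT it was 0.58 (SE 1.32) and 0.09 (SE 0.43). These interactions draw on the PVN values that chose the members and are given without a test.

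**Figure D2:**
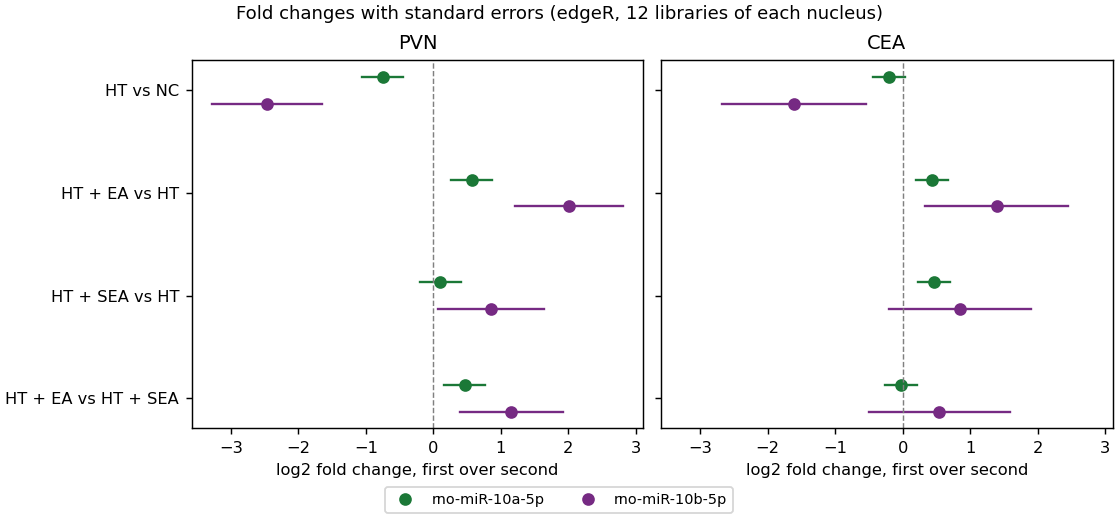
Log2 fold change of rno-miR-10a-5p and rno-miR-10b-5p in the 4 comparisons of treatments, in the PVN (left) and the CEA (right). Points are edgeR estimates, lines reach 1 standard error to each side, from the fits without a block, and positive values are higher in the group named first. The standard errors of miR-10b-5p, 0.77 to 0.81 in the PVN, are wider than those of miR-10a-5p in every comparison shown, and the PVN panel is a description of the values that chose the members.

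Across both nuclei, no HT library exceeded 59.8 CPM of rno-miR-10b-5p among 6, and each of the 6 other groups had at least 1 library at 134 CPM or more. Of those groups all but PVN HT + EA also held a low library, down to 11.4 CPM in CEA HT + SEA. This compares highest values only, draws in part on the PVN values that chose the members, and has no share over all miRNAs beside it, so nothing is read from it. It was not particular to miR-10b-5p. rno-miR-223-3p was at 1.54 CPM or less in every HT library, and every other group had a library at 10.8 CPM or more. Between the nuclei the log2 difference of miR-10b-5p, PVN over CEA, was 0.05 (SE 0.44), an estimate smaller than its error, and that of rno-miR-10a-5p was -0.46 (SE 0.16). Over 12 libraries each, miR-10b-5p had a median of 86.3 CPM in the PVN and 64.3 CPM in the CEA, and miR-10a-5p medians of 65.6 and 96.5 CPM. In this comparison 40% of the 1098 miRNAs were called at an adjusted p under 0.05.

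The spread between libraries of the same group set the 2 paralogs apart. On the log2 scale the within-group standard deviation of rno-miR-10b-5p was 1.0 in the PVN and 1.48 in the CEA, the second largest of the 380 miRNAs with a mean count of at least 100 in each nucleus, where the median was 0.165 and 0.223. That of rno-miR-10a-5p was 0.401 and 0.378, at places 14 and 54. The lowest count of miR-10b-5p in any library, 149, has a counting error of 8.19%. Within CEA HT + SEA, miR-10b-5p had 2275 counts in replicate 1 and 149 in replicate 2, from library totals of 14324159 and 13078143.

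**Figure D3:**
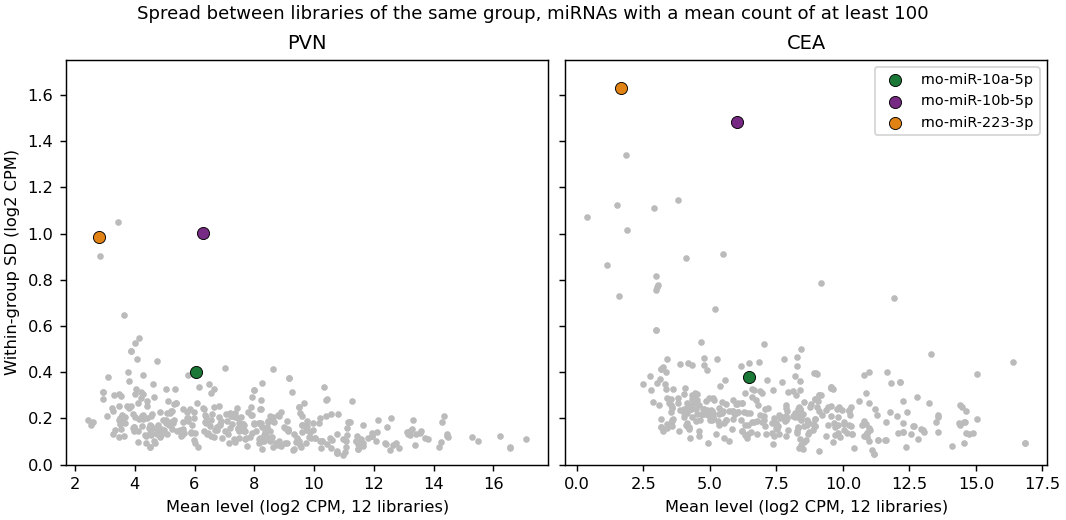
Within-group standard deviation of the log2 CPM against the mean log2 CPM for the 380 miRNAs with a mean count of at least 100, in the PVN (left) and the CEA (right). Each grey point is 1 miRNA and members are in colour with rno-miR-223-3p, and rno-miR-10b-5p is second from the top in both panels, at 1.0 and 1.48.

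The ratio of rno-miR-10b-5p to rno-miR-10a-5p counts within a library does not depend on how libraries are scaled. In the PVN it was 2.95, 0.936 and 1.99 in the NC replicates, 0.598, 0.576 and 0.878 in HT, 1.69, 1.69 and 2.16 in HT + EA and 1.93, 0.564 and 0.687 in HT + SEA. miR-10b-5p outnumbered miR-10a-5p in 6 of the 12 PVN libraries. In the CEA the ratio was 0.416, 2.06 and 1.82 in NC, 0.280, 0.574 and 0.848 in HT, 0.369, 1.53 and 1.48 in HT + EA and 1.45, 0.0835 and 1.06 in HT + SEA, again above 1 in 6 of 12 libraries. All 6 HT libraries were below 1. The lowest ratio, in CEA HT + SEA replicate 2, came with the highest level of miR-10a-5p in any library, 136 CPM.

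Over the 12 PVN libraries the log2 levels of the 2 paralogs had a Pearson r of 0.937 (Spearman rho 0.888), and r was 0.897 for deviations from the group means and 0.898 without the 2 libraries farthest from the median of miR-10b-5p. No other miRNA of the 530 with a mean count of at least 10 came as close to miR-10b-5p there. Over the 12 CEA libraries r was 0.210 (rho 0.175), with 0.128 for deviations from the group means and 0.590 without the 2 farthest libraries, which placed miR-10a-5p at 190 when ranked with them. These are descriptions of libraries that share depth and normalization, and reads that fit both paralogs would add to both.

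**Figure D4:**
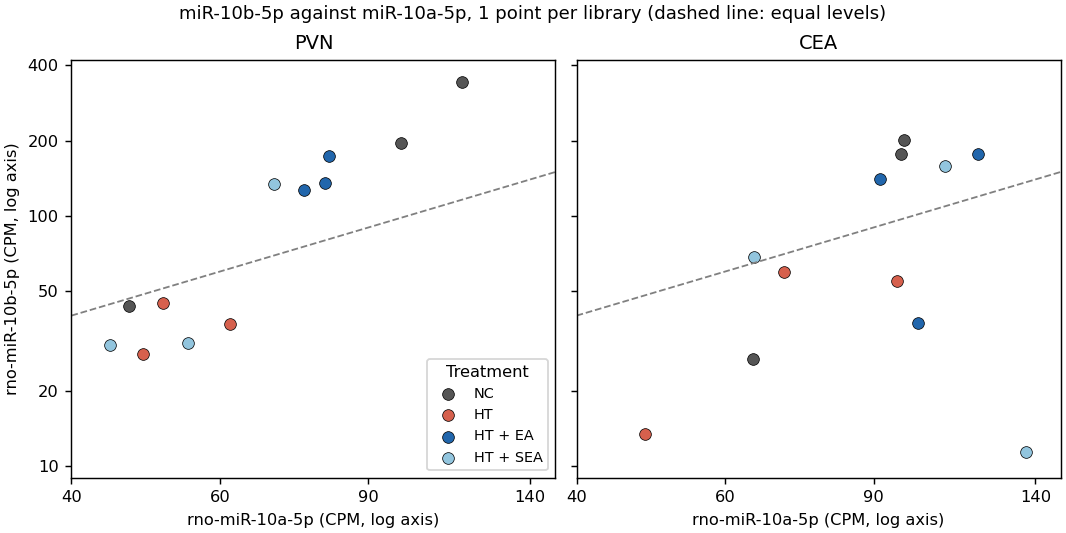
Level of rno-miR-10b-5p against rno-miR-10a-5p in CPM, both on log axes, in the PVN (left) and the CEA (right). Each point is 1 library coloured by treatment and the dashed line marks equal levels. The PVN points rise together (r = 0.937), and in the CEA miR-10a-5p keeps within 48.3 to 136 CPM while miR-10b-5p runs from 11.4 to 201 CPM.

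The miR-99/100 and miR-125 miRNAs are relatives of miR-10 in sequence or gene origin that lie outside the Hox clusters and are abundant in brain. All 11 listed arms were tested. At an adjusted p under 0.05, 0 of them were called in the 4 PVN comparisons of treatments, beside 1.23%, 0.285%, 0% and 0.095% of all miRNAs, and 0 in the 4 CEA comparisons, beside 0% in each, so nothing is read from these counts. The medians of their log2 fold changes lay between -0.06 and 0.13. rno-miR-99a-5p was at 30513 to 47139 CPM and rno-miR-100-5p at 9848 to 14940 CPM over the 24 libraries. Among the 9 relatives with a mean count of at least 100, the largest within-group standard deviation was 0.219 in the PVN and 0.207 in the CEA, below those of both 5p members. Between the nuclei 5 of the 11 were higher in the PVN and 3 lower, beside 20.2% and 19.8% of all miRNAs, with a median of 0.17 against 0.03 over all. rno-miR-125b-5p was higher in the PVN by 0.42 (SE 0.07, edgeR adjusted p = 9.2e-07), rno-miR-125b-2-3p by 0.54 (SE 0.07, edgeR adjusted p = 3.9e-09), and rno-miR-99b-5p was lower, at -0.28 (SE 0.07, edgeR adjusted p = 0.000823).

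Besides miR-10a-5p, the miRNAs most like rno-miR-10b-5p over the 12 PVN libraries were rno-miR-203b-5p (r = 0.875), rno-miR-203a-3p (0.819) and rno-miR-205 (0.811), which are known from skin and other epithelia, followed by rno-miR-224-5p (0.758) and rno-miR-500-3p (0.738). The first pair are the same stretch of chromosome 6 read from opposite strands, 137020756 to 137020777 for miR-203a-3p and to 137020775 for miR-203b-5p in GRCr8. Their counts stood in a ratio of 0.781 to 0.924 in every library, and they count as 1 measurement at most. rno-miR-203b-5p was 41.3, 27.5 and 31.4 CPM in the PVN NC replicates, 22.1, 21.9 and 24.2 CPM in HT, 27.7, 31.6 and 38.1 CPM in HT + EA and 35.1, 25.8 and 26.6 CPM in HT + SEA. It is low in NC replicate 2 and high in HT + SEA replicate 1 relative to their groups, as miR-10b-5p is, over a range of 1.89-fold.

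Over the 12 CEA libraries the most alike were rno-miR-145-5p (r = 0.835), which is abundant in smooth muscle and pericytes, rno-miR-223-3p (0.820), a miRNA of neutrophils and other myeloid cells, rno-miR-217-5p (0.789), rno-miR-1b (0.774) and rno-miR-145-3p (0.759). None of the 5 was among the 5 of the PVN. Over the PVN libraries rno-miR-145-5p had r = -0.325 with miR-10b-5p, while rno-miR-203b-5p had r = 0.671 over the CEA libraries. These miRNAs were picked for likeness from 530, and no test is given.

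rno-miR-223-3p was the miRNA with the largest within-group spread in the CEA and the third largest in the PVN, and its level is set beside miR-10b-5p by library. In the CEA it was 1.27, 10.7 and 10.8 CPM in the NC replicates, 0.906, 0.912 and 0.886 CPM in HT, 1.24, 12.5 and 10.5 CPM in HT + EA and 19.0, 1.38 and 1.74 CPM in HT + SEA. In the PVN it was 22.3, 89.0 and 81.2 CPM in NC, 1.02, 1.40 and 1.54 CPM in HT, 10.3, 8.98 and 11.9 CPM in HT + EA and 11.1, 1.58 and 1.49 CPM in HT + SEA. Libraries at 8.98 CPM or more of miR-223-3p had 127.6 CPM or more of miR-10b-5p, with the exception of PVN NC replicate 2, which had 89.0 CPM of miR-223-3p and 43.8 CPM of miR-10b-5p. Those at 1.74 CPM or less had up to 68.8 CPM of miR-10b-5p, in CEA HT + SEA replicate 3. PVN NC replicate 1 had the most miR-10b-5p, 343 CPM, and the least miR-223-3p of its group. Over the PVN libraries r was 0.670, at place 11 of 530, and 0.171 for deviations from the group means. Since miR-223-3p falls into separate low and high libraries, its r describes that division and not a graded relation.

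The summed level of the 5 listed blood and myeloid miRNAs, miR-223-3p among them (5 of 5 found, none at 0 throughout, led by rno-miR-150-5p) was 229 to 327 CPM in PVN NC, 222 to 303 in PVN HT, 247 to 264 in PVN HT + EA and 229 to 255 in PVN HT + SEA. In the CEA it was 266 to 327 CPM in NC, 224 to 334 in HT, 280 to 322 in HT + EA and 282 to 324 in HT + SEA. The sum of 4 endothelial and mural miRNAs, all found, was 28020 to 33340 CPM in the PVN and 34890 to 40090 CPM in the CEA. Over the 12 libraries the log2 sum of the myeloid list had r = 0.751 with that of miR-10b-5p in the CEA and 0.0868 in the PVN, and the endothelial and mural list 0.743 and -0.181. The part of these cell types in the miR-10b-5p values was not tested.

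The list of 5 ciliated-cell and choroid plexus miRNAs, all found, was at 3755 to 4463 CPM in PVN NC, 2971 to 3214 in HT, 3045 to 3427 in HT + EA and 3293 to 3666 in HT + SEA. The 6 epithelial and pituitary miRNAs, all found, summed to 116 to 178 CPM in PVN NC, 86.9 to 112 in HT, 114 to 161 in HT + EA and 115 to 140 in HT + SEA. The 4 striated-muscle miRNAs, all found, summed to 44.8 to 111 CPM in PVN NC and to 20.3 to 31.3 CPM in the other PVN groups. The 4 red-cell miRNAs, all found, summed to 269.7 to 335.5 CPM in PVN NC, 228.5 to 243.9 in HT, 227.5 to 323.3 in HT + EA and 252.8 to 297.3 in HT + SEA. In the CEA they summed to 160.1 to 248.7 CPM in NC, 94.5 to 207.6 in HT, 156 to 194.7 in HT + EA and 165.5 to 332 in HT + SEA. PVN NC and HT did not overlap for the ciliated, epithelial, muscle and red-cell lists, and overlapped for the other lists. Of single miRNAs, 12.8% did not overlap in that comparison. The 3 oligodendrocyte miRNAs, all found, were at 1795 to 3236 CPM in the PVN and 3904 to 7916 CPM in the CEA.

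With miR-10b-5p the log2 sums of these lists had the following r over 12 libraries. It was 0.540 in the PVN and 0.148 in the CEA for the ciliated and choroid plexus list, and 0.396 and 0.281 for the epithelial and pituitary list. It was 0.244 and 0.596 for striated muscle, 0.181 and 0.590 for red cells, and -0.448 and 0.653 for oligodendrocytes. The neuron list had -0.365 and 0.173. The part of any of these in the levels of miR-10a-5p and miR-10b-5p was not tested.

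**Figure D5:**
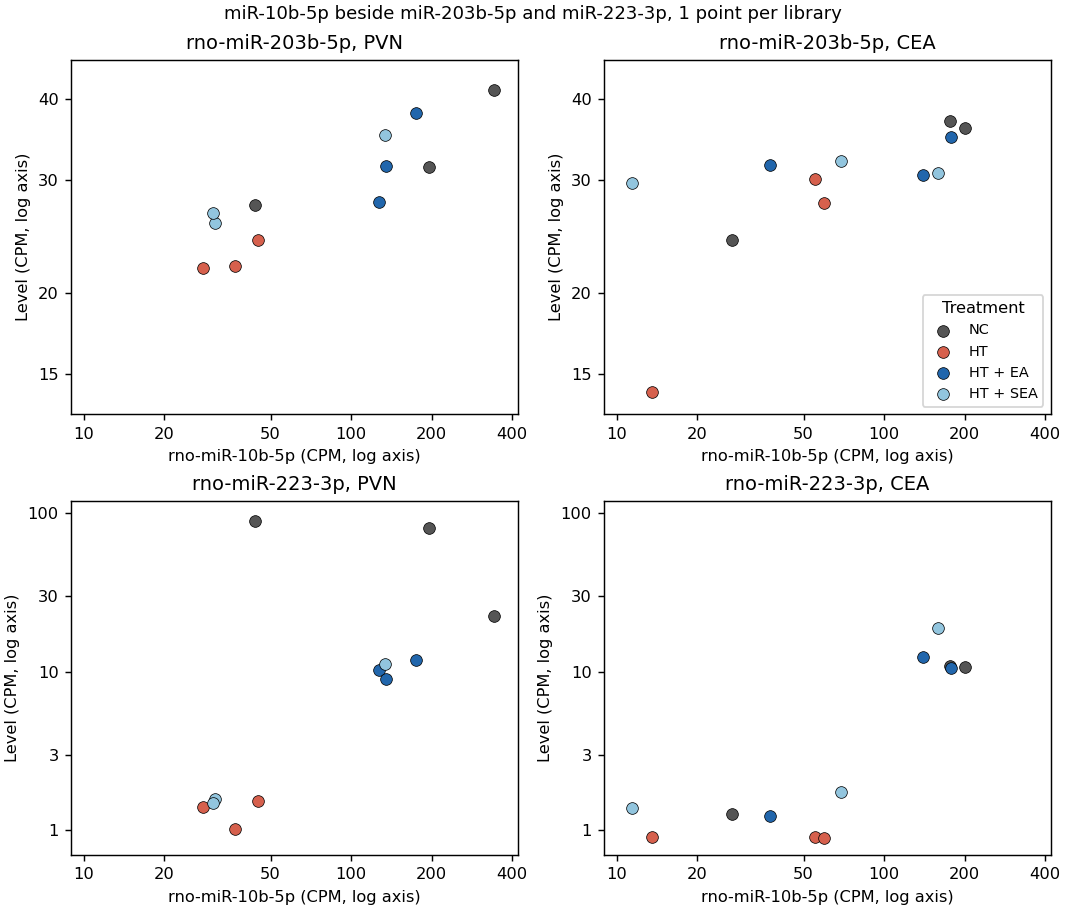
Level of rno-miR-203b-5p (upper row) and rno-miR-223-3p (lower row) against rno-miR-10b-5p in CPM, all on log axes, in the PVN (left) and the CEA (right), with 1 point per library coloured by treatment. miR-203b-5p rises with miR-10b-5p in the PVN over a range of 1.89-fold, and miR-223-3p lies either at 1.74 CPM and below or at 8.98 CPM and above.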

How the data were processed

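Small RNA libraries of the PVN and CEA were made with a NEBNext small RNA kit, per the labels, and 24 were analysed here. The values are raw counts of reads on each miRNA as deposited, 703 with rat miRNA names and 395 predicted. A further 24 columns of the deposited table, values scaled to library totals, were not used. The paper names HISAT2 and featureCounts on mRatBN7.2, while the submitters' processing notes list the same tools with GRCh38 and hg38, and the series text says mouse where the sample labels say rat. How reads that fit several miRNAs were counted is not given in the sources used here.

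Groups came from the sample titles. Members and lists were chosen with earlier results of these data known. Members' neighbours were named by a rule: the 5 highest Pearson r with rno-miR-10b-5p of log2 CPM (prior count 0.5) in each nucleus. rno-miR-223-3p is also given by library in the PVN, chosen after its values were seen. Counts were fitted with edgeR 4.0.16 (limma 3.58.1, R 4.3.3; TMM, glmQLFit with robust estimation, glmQLFTest) over miRNAs with at least 1 count, 12 libraries per nucleus with 4 treatments, or all 24 with treatment as a covariate, and Benjamini-Hochberg adjustment over all miRNAs tested, called under 0.05. Displayed CPM use library totals and the fits TMM. On simulated counts for HT against NC in the CEA (1037 miRNAs), 76% of 100 2-fold and 99% of 100 4-fold changes were called, with 4 false calls. The simulation gave every miRNA the same dispersion. These shares therefore do not apply to miR-10b-5p, whose within-group standard deviation in the CEA was 1.48 on the log2 scale, against a median of 0.223. Replicate numbers are shared between groups in the labels. Deviations of same-numbered libraries from their group means were correlated over miRNAs with a mean count of at least 10. They correlated above 0.1 in every pair for CEA HT against NC (0.203 to 0.418) and PVN HT + EA against HT (0.147 to 0.307), taken as pairing, and in no other comparison of treatments within a nucleus. Between the nuclei they did so in NC (0.182 to 0.301) and HT + SEA (0.371 to 0.555). Alternatives were DESeq2 1.42.0, other scalings, filters and fits, the replicate block, and leaving out each library. Sequences are from RefSeq (GRCr8). Python 3.11.15, pandas 2.3.3, scipy 1.17.1 and matplotlib 3.10.9 were used.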

Additional observations from a re-analysis of the deposited data

How the results depend on the processing

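The signs of the miR-10a-5p and miR-10b-5p fold changes held under all alternatives except those given here. In the CEA, miR-10a-5p for HT + EA against HT + SEA turned from -0.02 to 0.00919 with library totals, 0.00766 with the replicate block and 0.0100 with DESeq2 and the block (added after the data were seen), and miR-10b-5p for PVN over CEA turned to -0.0331 with the block. Leaving out each library in turn gave -0.20 to 1.17 for miR-10b-5p and -0.0677 to 0.226 for miR-10a-5p in PVN HT + SEA against HT, 0.84 to 2.23 for miR-10b-5p in PVN HT + EA against HT + SEA, -0.15 to 1.36 for miR-10b-5p in CEA HT + SEA against HT, -0.29 to 0.22 for miR-10a-5p in CEA HT + EA against HT + SEA, and -0.19 to 0.27 for miR-10b-5p in PVN over CEA. In the first 4 of these 6 ranges the end that turned the sign or, for HT + EA against HT + SEA, moved the value most was HT + SEA replicate 1 of that nucleus. In the last 2, 3 and 9 single libraries turned the sign. For miR-10b-5p in CEA HT + EA against HT + SEA the range was 0.02 to 1.55, and the block took the value from 0.55 to 0.03 with edgeR and 0.01 with DESeq2. For HT against NC in the PVN the range was -2.92 to -1.78 for miR-10b-5p and -1.03 to -0.49 for miR-10a-5p. In the CEA the range of miR-10a-5p was -0.44 to -0.04 for HT against NC and 0.20 to 0.72 for HT + SEA against HT.

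With the replicate block, miR-10b-5p in the CEA passed the threshold for HT against NC (-1.55, edgeR adjusted p = 1.1e-12), HT + EA against HT (1.36, edgeR adjusted p = 1.2e-09) and HT + SEA against HT (1.33, edgeR adjusted p = 3.6e-07), 1 member called in each, and the edgeR prior was infinite in this fit. DESeq2 with the block called 0 in each. With the block and only the NC and HT libraries of the CEA (added after the data were seen), edgeR gave -1.43 and DESeq2 -1.41, 1 member called by each, with 6 and 2 calls over all miRNAs. Same-numbered libraries were not correlated above 0.1 in every pair in the last 2 of these comparisons.

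Counts over all miRNAs moved more. For PVN HT against NC, 13 became 25 with DESeq2, 2 with at least 10 counts, 3 with filterByExpr, 42 without robust estimation, 8 with only the 2 groups and 46 with the block, and 22 to 56 when a library was left out. For PVN HT + EA against HT, 3 became 18 with DESeq2, 1 with library totals, 15 without robust estimation, 10 with only the 2 groups and 33 with the block, and 7 to 39 without a library. For PVN HT + SEA against HT, 0 became 7, 6 and 23 without robust estimation, with 2 groups and with the block, and 0 to 28 without a library. For PVN HT + EA against HT + SEA, 1 became 0, 2, 18 and 12 with filterByExpr, without robust estimation, with 2 groups and with the block, and 0 to 12 without a library. In the CEA the block gave 6, 14, 19 and 1 calls and the 2-group fit 1, 0, 3 and 0, and leaving out a library 0 to 2. The cause was not tested. The alternatives entered the counts of members called for all 6 members, and fold changes were tabulated for miR-10a-5p and miR-10b-5p. With 3 libraries a group, the unpaired spread between them limits the precision for miR-10b-5p.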
